A study of Mus musculus with 8 samples.

Results

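Histone acetylation is set by acetyltransferases and deacetylases and read by bromodomain proteins, and 33 genes of this system and of H3K27 methylation are described here in cells treated with C28. They were taken from the expression table by gene symbol, 33 of its 54232 rows. The rule did not use their values, but the list was chosen with earlier results of these data known. The 33 comprise 9 acetyltransferases, 11 zinc-dependent deacetylases (HDACs), 7 sirtuins, 2 BET readers and 4 enzymes that add or remove methyl groups at H3K27. The treated cells were mouse cells of C57BL/6 background, labelled female germline stem cells (FGSCs), given C28 for 3 h. The control cells had the same background and cell label and were given the solvent DMSO, or were labelled control for the chromatin assay. C28 is known here only by that code, written 028 in the sample names, and its dose is not given in the sources used here. RNA was sequenced from 3 C28 and 3 DMSO libraries, and the histone mark H3K27ac was profiled by chromatin immunoprecipitation in 1 C28 and 1 control library.

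Acetylation of histone tails loosens the hold of nucleosomes on DNA and makes docking sites for bromodomains. On lysine 27 of histone H3 acetylation and methylation exclude each other: p300 and CBP acetylate it at active promoters and enhancers, whereas EZH1 and EZH2, inside the Polycomb complex PRC2, trimethylate it at silent genes. The demethylases KDM6A and KDM6B remove that methylation. Zinc-dependent deacetylases and the NAD-dependent sirtuins remove acetyl groups, and sirtuins act partly on mitochondrial and cytoplasmic proteins. In stem cells this machinery is known for keeping developmental genes repressed but inducible.

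The RNA libraries held 16930212 to 17428321 reads on genes with C28 and 18613916 to 19197376 with DMSO. The labels do not say whether replicates were separate cultures, so p-values here reflect library-to-library spread alone, possibly of technical origin. Of 7 germline stem cell markers 3 had a mean normalized count (6 libraries) of 10 or more, Kit at 20987, Ifitm3 at 201 and Zbtb16 at 27.1, genes that blood cells also express. The others were at or near 0: the germ cell genes Ddx4 averaged 0.669 and Dazl 0.159, and Pou5f1 and Dppa3 had 0 reads. Of 7 leukocyte markers 6 averaged 10 or more, and Ptprc, the pan-leukocyte protein CD45, averaged 7527. The labelled cell type is thus met only by markers that blood cells also express, and the label is used here as a name. The summed level of the 7 leukocyte markers was 10660 to 11576 normalized counts with C28 and 10514 to 10720 with DMSO. Of 7 mast cell markers 3 averaged 10 or more, Gata2 at 23743, Cpa3 at 6753 and Hdc at 73.9. Fcer1a and Tpsb2 had 0 reads, and Ms4a2 averaged 0.514 and Mcpt4 0.675. The 7 markers summed to 26778 to 31157 with C28 and 31222 to 32632 with DMSO, without overlap. Most of the sum was the transcription factor gene Gata2, at 21760.1 to 22842 with C28 and 24412 to 26194 with DMSO. The part of these markers in the results was not tested. In bulk RNA, fewer cells of a type and less RNA per cell cannot be told apart.

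After 3 h of C28 the RNA of this machinery differed little from that with DMSO, and Kat2a, lower with C28, gave the clearest difference once libraries were compared within replicate numbers. Of the 33 genes 32 had enough reads to be tested, and Hdac11 had 0 reads in every library. Without a replicate block, limma called 0 of the 32 in either direction at an adjusted p under 0.05, against 0.136% of all 19054 genes tested (26 genes, 0.121% higher and 0.0157% lower). At an unadjusted p under 0.05 limma gave 2 of 32 (6.25%, against 7.83% of all genes), and with a block for the replicate number 8 of 32 (25%, against 18.2%). Without the block edgeR's quasi-likelihood test called 0 of 32, against 0.147% of all genes, and DESeq2 called 0 of 32, against 0.955%. The C28 to DMSO ratio of the 32 genes lay between 0.821 for Kat2a and 1.23 for Kat6b. Their median log2 fold change was -0.0049, against 0.00425 over all genes. Of the 32, 19 (59.4%, against 35.6% of all genes) differed by less than 0.1 on the log2 scale. Those shares are not directly comparable, since the genes differ in abundance. A mean normalized count of at least 200 was reached by 28 of the 32, whereas 19054 genes were tested and 13225 reached a mean of 10. Fold changes are on the scale log2(normalized count + 1), where a normalized count is the authors' read count divided by a size factor of the library.

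The intervals limit how large a change could be missed between these libraries. They rest on the same library-to-library spread as the p-values. For 31 of the 32 genes the 95% confidence interval of the log2 fold change, taken gene by gene in limma, stayed within a 2-fold change, and for 29 it stayed within 1.5-fold. Kat2a, Hdac5 and Hdac9 had intervals that reached 1.5-fold, and Hdac9 alone reached 2-fold. Same-numbered C28 and DMSO libraries deviated together, so the fit was repeated with the replicate number as a block. With the block 1 gene passed: Kat2a fell, against 4.8% of all genes called in that fit (914 genes, 2.55% higher and 2.25% lower). The authors' deposited table holds an adjusted p for the same 32 genes, and the lowest of these in the authors' deposited table was 0.570, for Kat6b.

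**Figure D1:**
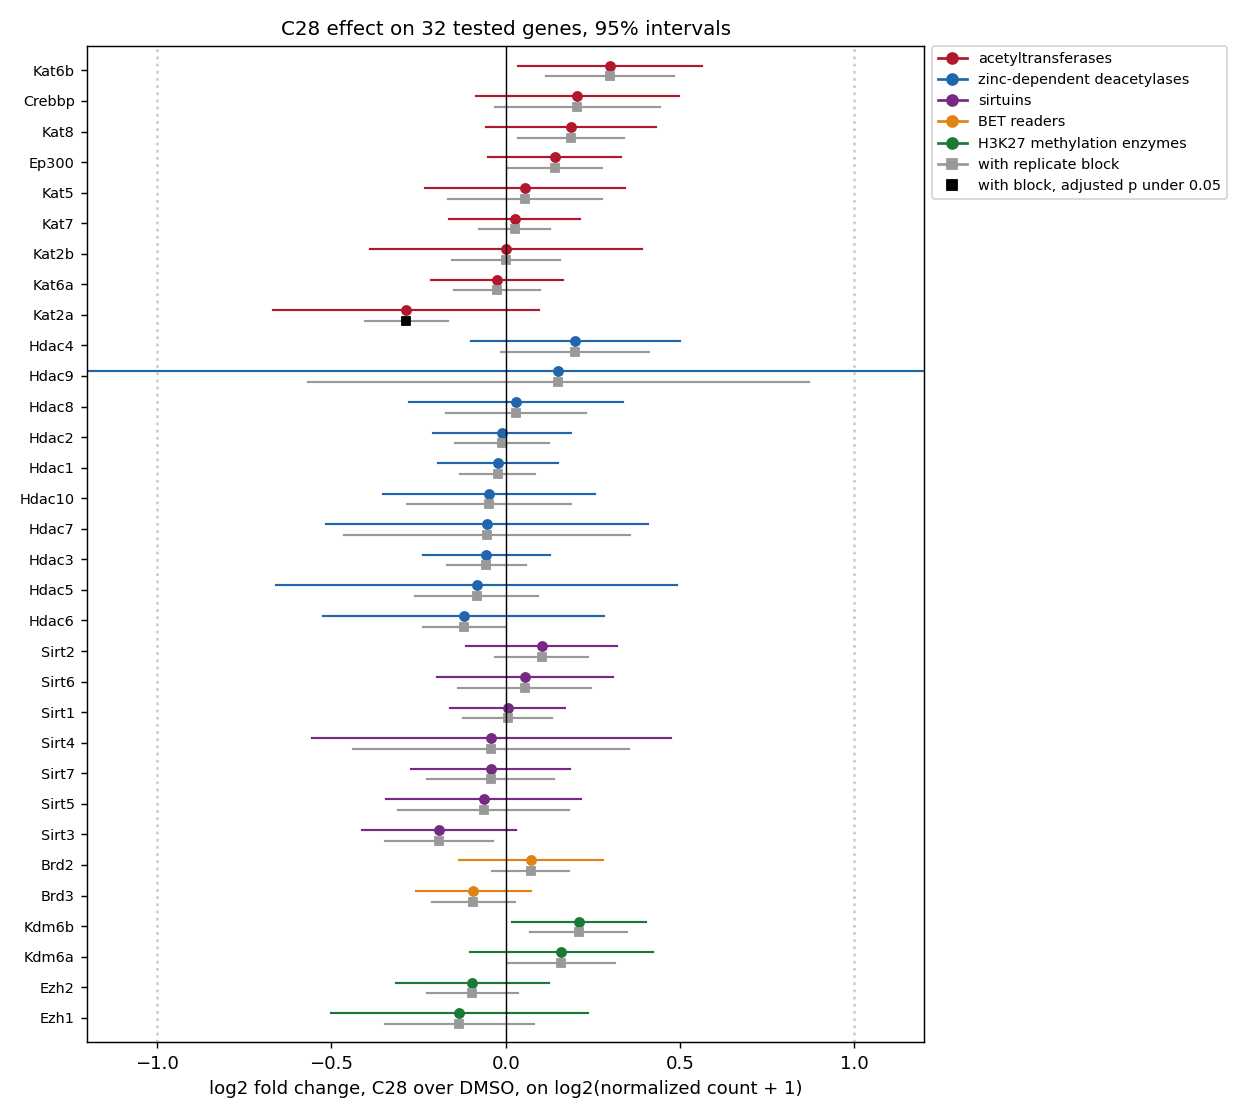
Log2 fold change of C28 over DMSO (x axis, on log2(normalized count + 1)) for the 32 tested genes, with 95% intervals from limma; coloured circles are without and grey squares with the replicate block, and the Hdac9 interval runs past the axis. Points sit between -0.28 for Kat2a and 0.30 for Kat6b, and the black square marks Kat2a, the gene called with the block.

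The lowest fold change of the 32 was that of the acetyltransferase gene Kat2a (ENSMUSG00000020918), which encodes GCN5, the acetyltransferase of the SAGA and ATAC co-activator complexes and a writer of H3K9 acetylation. Kat2a was at 1643, 2371 and 2373 normalized counts in C28 replicates 1 to 3, against 2180.1, 2712 and 2829 in DMSO replicates 1 to 3. Replicate 1 was the lowest library of both groups, so the groups overlapped, yet each C28 library lay below the DMSO library of the same number. The log2 differences within pairs were -0.41, -0.19 and -0.25. Without the block the log2 fold change was -0.28 ± 0.16 (SE, limma adjusted p 0.764), and with the block the same difference had an SE of 0.05 (limma adjusted p 0.0128). The blocked call held with replicate 1 left out of both groups (limma adjusted p 0.024) but not with replicate 2 left out (0.169) or replicate 3 left out (0.151). Calls over all genes fell in the same 2 fits, from 4.8% with every replicate to 0.262% without replicate 2 and 1.09% without replicate 3. Without replicate 1 the share was 4.48%.

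Kat2b encodes PCAF, the paralog of GCN5 that takes its place in the same complexes. Kat2b was at 608, 440.0 and 492 normalized counts with C28, against 614, 427 and 501 with DMSO. Its values followed the replicate number and hardly the treatment, with a log2 fold change of 0.00 and an interval from -0.39 to 0.39. The ratio of Kat2a to Kat2b counts was 2.70, 5.39 and 4.82 in C28 replicates 1 to 3, against 3.55, 6.35 and 5.64 in DMSO replicates 1 to 3, lower with C28 in each pair. Transcript lengths differ, so this ratio compares libraries and not the abundance of the 2 genes.

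Kat6b (ENSMUSG00000021767), which encodes MORF, an H3 acetyltransferase of the MYST family, had the highest fold change of the 32. Kat6b was at 446, 377 and 368 normalized counts with C28, against 339, 304 and 320.5 with DMSO. Every C28 library lay above every DMSO library, a separation shown by 4 of the 32 genes (12.5%) and by 14.7% of all genes tested (8.16% with C28 above, as for Kat6b and Kdm6b, and 6.49% with C28 below, as for Sirt3 and Brd3). The log2 fold change was 0.30 ± 0.11 (SE), and its adjusted p was 0.572 in limma and 0.0724 once blocked. It rose in edgeR's quasi-likelihood test with the block (adjusted p 0.0387), where 6.99% of all genes were called, and in no other fit of those run. Its paralog Kat6a, which encodes MOZ, was at 2424 ± 228 with C28 and 2459.6 ± 58.5 with DMSO (SD, n = 3 each), a log2 fold change of -0.02 with an interval from -0.21 to 0.16.

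The 250 bases before the annotated start of Kat2a and of Kat6b are shown because these are the 2 genes called in any fit. Both are RefSeq sequences of build GRCm38.p6 read in the direction of the gene, Kat2a from the minus strand at chr11:100712468-100712717 and Kat6b, at the more upstream of its annotated starts, from the plus strand at chr14:21499520-21499769. Capitals mark matches to 7 motifs that are spelled out with their counts near the end.
Kat2a promoter: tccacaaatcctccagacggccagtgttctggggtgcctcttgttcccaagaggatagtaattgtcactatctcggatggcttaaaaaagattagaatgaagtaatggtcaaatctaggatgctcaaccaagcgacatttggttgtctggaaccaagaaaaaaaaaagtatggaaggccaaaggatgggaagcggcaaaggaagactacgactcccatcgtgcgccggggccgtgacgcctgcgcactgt
Kat6b promoter: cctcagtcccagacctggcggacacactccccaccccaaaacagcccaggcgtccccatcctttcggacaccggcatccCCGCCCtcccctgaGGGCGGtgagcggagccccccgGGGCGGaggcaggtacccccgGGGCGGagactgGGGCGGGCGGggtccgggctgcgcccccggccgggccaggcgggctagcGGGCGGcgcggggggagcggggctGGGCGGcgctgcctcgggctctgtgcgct
The Kat2a window held none of the 7 motifs, 48.8% G or C and 11 CpG dinucleotides. The Kat6b window held 8 matches, each to the GC box, with 78.8% G or C and 27 CpG dinucleotides.

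The H3K27 acetyltransferases themselves gave small differences with no call. Ep300, which encodes p300, was at 2262, 1954 and 1964 normalized counts with C28, against 1835, 1795 and 1966 with DMSO. Crebbp, which encodes its paralog CBP, was at 363, 342 and 316 with C28, against 255, 317 and 316 with DMSO. In both genes pair 1 carried most of the difference: the log2 differences within pairs were 0.30, 0.12 and -0.00 for Ep300 and 0.51, 0.11 and -0.00 for Crebbp. The interval of the log2 fold change ran from -0.05 to 0.33 for Ep300 (limma adjusted p 0.768) and from -0.09 to 0.50 for Crebbp (0.79).

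The remaining acetyltransferases belong to the MYST family. Kat8, which encodes MOF, the writer of H4K16 acetylation, was at 663, 602 and 599 normalized counts with C28, against 613, 529 and 498 with DMSO, higher in 3 of 3 pairs with overlapping groups (adjusted p 0.755 in limma, 0.17 once blocked). Kat5, which encodes TIP60 of the NuA4 complex, was at 438 ± 33.1 with C28 and 423 ± 56.6 with DMSO (SD, n = 3 each). Kat7, which encodes HBO1, was at 2331, 2726 and 2555 with C28, against 2347, 2610.1 and 2512 with DMSO, with an interval of the log2 fold change from -0.16 to 0.21. Over the 9 acetyltransferases the counts summed to 11461 ± 159 with C28 and 11490 ± 375 with DMSO (SD, n = 3 each), a ratio of 0.997.

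**Figure D2:**
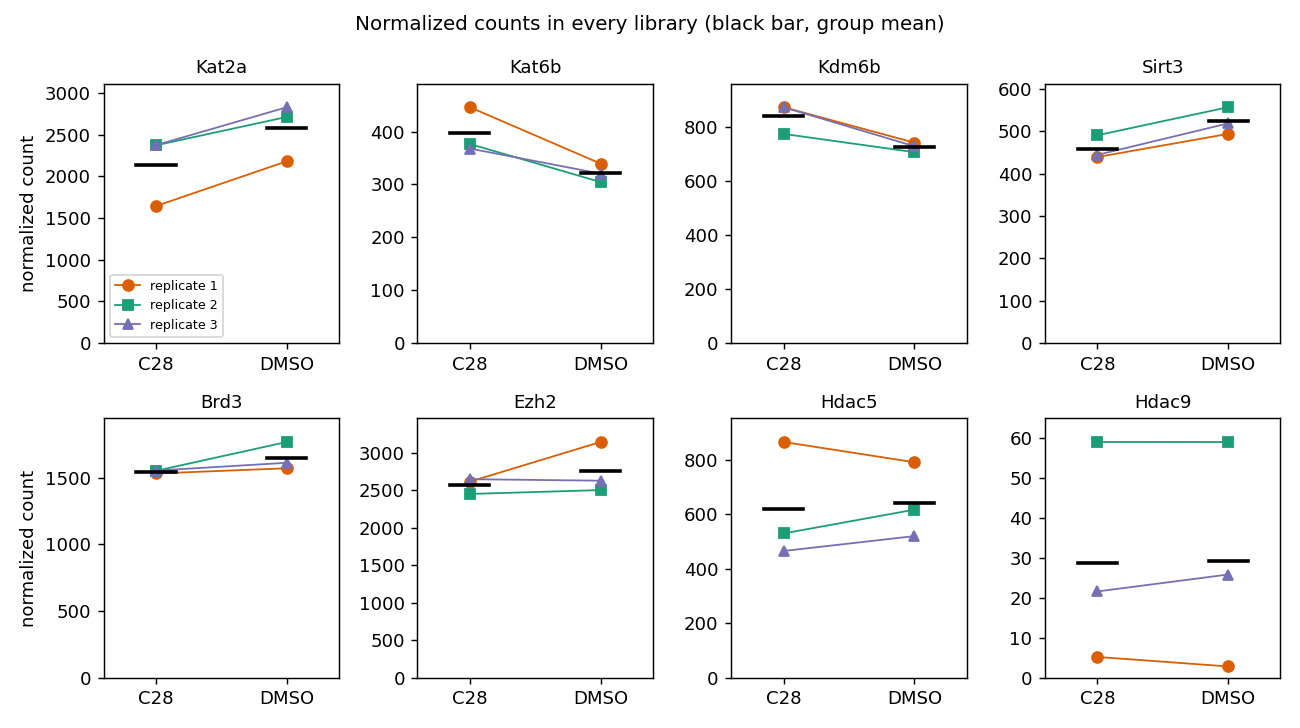
Normalized counts (y axis, from 0) of 8 genes in every library, C28 left and DMSO right, with same-numbered libraries joined and black bars at the group means (n = 3 each). Kat2a lies lower with C28 in each pair while replicate 1 is the lowest of both groups, Kat6b and Kdm6b lie higher with C28 in each pair, and Hdac9 is lowest in replicate 1 and highest in replicate 2 of both groups.

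Of the 11 zinc-dependent deacetylases, 0 of 10 tested passed in limma with or without the block. The class I enzymes HDAC1, HDAC2 and HDAC3, the catalytic cores of the nuclear co-repressor complexes, gave narrow intervals. Hdac1 was at 2139.7, 2441 and 2408 normalized counts with C28, against 2283, 2437 and 2371 with DMSO. Hdac2 was at 2029.8 ± 204 with C28 and 2038 ± 27.2 with DMSO, and Hdac3 at 1779 ± 131 with C28 and 1847 ± 76.9 with DMSO (SD, n = 3 each). The groups overlapped for all 3, and the intervals of their log2 fold changes lay between -0.24 and 0.19. Hdac8, the other class I enzyme, was at 298 ± 33.5 with C28 and 292 ± 31 with DMSO.

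Class IIa deacetylases shuttle between nucleus and cytoplasm and act largely as scaffolds for HDAC3. Hdac4 was at 551, 458 and 405 normalized counts with C28, against 414, 383 and 425 with DMSO, so that C28 replicate 3 lay below DMSO replicate 3 and the other pairs were higher (limma adjusted p 0.806). Hdac5 was at 866, 530.1 and 466 with C28, against 792, 618 and 520.4 with DMSO. Replicate 1 was the highest Hdac5 library in both groups, and the interval ran from -0.66 to 0.49. Hdac7, a class IIa enzyme of lymphoid and endothelial cells, was at 72.6 ± 4.71 with C28 and 76.1 ± 14.0 with DMSO (SD, n = 3 each). Hdac7 overlaps Slc48a1 in the RefSeq annotation, and Slc48a1 averaged 4087 normalized counts. The labels do not state whether counting used strand, and part of these reads could not be assigned with certainty.

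Hdac9 was the most variable gene of the 32. Hdac9 was at 5.19, 59.0 and 21.6 normalized counts with C28, against 2.80, 59.0 and 25.8 with DMSO. Replicate 1 was lowest and replicate 2 highest in both groups, and the treatment difference was small beside that spread, with a log2 fold change of 0.15 and an interval from -2.49 to 2.79. Only 173 Hdac9 reads were recovered over the 6 libraries.

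The cytoplasmic and class IV members completed the family. Hdac6, a class IIb enzyme that deacetylates tubulin and serves the clearance of protein aggregates, was at 1059, 1479.8 and 1481 normalized counts with C28, against 1167, 1543 and 1656 with DMSO. It was lower with C28 in 3 of 3 pairs, with replicate 1 lowest in both groups (log2 fold change -0.12 ± 0.17 SE, adjusted p 0.95 in limma, 0.266 once blocked). Hdac10, which deacetylates polyamines, was at 304 ± 9.19 with C28 and 317 ± 47.4 with DMSO (SD, n = 3 each). Hdac11, the class IV enzyme, had 0 of 108208382 recovered reads, which allows up to 3 (counting error only). The 11 genes summed to 9274 ± 478 normalized counts with C28 and 9468 ± 213 with DMSO, a ratio of 0.980.

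The sirtuins need NAD and link deacetylation to metabolism. None of the 7 passed in limma with or without the block. Sirt1, the nuclear sirtuin that deacetylates histones, p53 and several autophagy proteins, was at 902, 907 and 872 normalized counts with C28, against 885, 918 and 867 with DMSO. The groups overlapped almost entirely, and the log2 fold change was 0.01 with an interval from -0.16 to 0.17. Sirt3, the main mitochondrial deacetylase, was at 439, 490.4 and 444 with C28, against 494, 557 and 518 with DMSO. Every C28 library lay below every DMSO library, with log2 differences of -0.17, -0.18 and -0.22 in pairs 1 to 3 (adjusted p 0.719 in limma, 0.173 once blocked). Sirt3 overlaps Ric8a in the RefSeq annotation, which averaged 1577 normalized counts, with the same uncertainty about strand.

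The other sirtuins gave no separation between groups. Sirt2, a mainly cytoplasmic deacetylase, was at 1112, 1204 and 1158 normalized counts with C28, against 955, 1156 and 1135 with DMSO, higher in 3 of 3 pairs (limma adjusted p 0.885). Sirt4, a mitochondrial enzyme, was at 62.3, 89.1 and 106 with C28, against 86.0, 84.7 and 88.0 with DMSO, so the C28 libraries spread on both sides of the DMSO libraries. Sirt5, which removes succinyl and malonyl groups, was at 191 ± 11.8 with C28 and 199.8 ± 12.6 with DMSO (SD, n = 3 each). Sirt6, which deacetylates H3K9, was at 418 ± 45.6 with C28 and 400.4 ± 13.4 with DMSO, and the nucleolar Sirt7 at 803 ± 79.9 with C28 and 826 ± 49.8 with DMSO. The 7 genes summed to 4007 ± 88.0 normalized counts with C28 and 4007 ± 185 with DMSO.

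BET proteins carry a pair of bromodomains that bind acetylated histone tails and recruit transcription factors and elongation kinases. Brd2 was at 5886, 6284 and 6252 normalized counts with C28, against 5120.3, 6296 and 6178 with DMSO. The lowest of the 6 was DMSO replicate 1, and the other 5 libraries lay close together (log2 fold change 0.07 ± 0.09 SE, limma adjusted p 0.933). Brd3 was at 1532, 1552 and 1553 with C28, against 1571, 1768 and 1612 with DMSO. All C28 libraries lay below all DMSO libraries, with a log2 fold change of -0.09 with an interval from -0.26 to 0.07 (adjusted p 0.861 in limma, 0.414 once blocked).

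The H3K27 methylation enzymes showed the same small scale. Kdm6b, an inducible demethylase of H3K27 that is known for its rise in stimulated macrophages, was at 874, 775 and 874 normalized counts with C28, against 742, 707 and 729 with DMSO. Every C28 library lay above every DMSO library, and the log2 fold change was 0.21 ± 0.08 (SE, adjusted p 0.598 in limma, 0.0941 once blocked). Kdm6a, the X-linked demethylase UTX, was at 774, 605 and 638 with C28, against 639, 580.4 and 579 with DMSO, higher in 3 of 3 pairs with overlapping groups (adjusted p 0.831 in limma, 0.259 once blocked). The 2 demethylases are thus higher with C28 in 3 of 3 pairs each, as are 20.6% of all genes tested.

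The methyltransferases lay on the other side of 0 without separation. Ezh2, the PRC2 enzyme of dividing cells, was at 2613, 2449 and 2646 normalized counts with C28, against 3142, 2501 and 2626 with DMSO, where DMSO replicate 1 alone stood high. Ezh1, the enzyme of resting cells, was at 340.4, 235 and 268 with C28, against 325, 273 and 319 with DMSO. The intervals ran from -0.32 to 0.13 for Ezh2 and from -0.50 to 0.24 for Ezh1. The PRC2 core subunits Eed and Suz12, partner genes fixed for naming, were at 1321 ± 108 and 2708 ± 176 with C28 and at 1412 ± 74.7 and 2722 ± 250.3 with DMSO (SD, n = 3 each). Neither passed (adjusted p 0.881 and 0.995 in limma).

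Several of these genes differed between replicate 1 and the other replicates. Replicate 1 was compared with replicates 2 and 3 with treatment as a covariate, and 6 of the 32 genes passed in limma (18.8%, against 19.6% of all genes tested, 9.51% higher and 10.1% lower), a share near the background. Hdac5 averaged 829 normalized counts in replicate 1 and 533 in replicates 2 and 3 (log2 difference 0.64 ± 0.10 SE), and Kat2b averaged 611 in replicate 1 and 465 in replicates 2 and 3. Both were higher in replicate 1. Kat2a averaged 1911 in replicate 1 and 2571 in replicates 2 and 3, and Hdac6 1113 in replicate 1 and 1540.0 in replicates 2 and 3. Brd2 averaged 5503 in replicate 1 and 6253 in the others, and Hdac9 4.0 in replicate 1 and 41.4 in the others. These 4 were lower in replicate 1, with limma adjusted p 0.000344 for Kat2a, 0.000221 for Hdac6, 0.00116 for Hdac9 and 0.0305 for Brd2. Fits within the C28 libraries alone or the DMSO libraries alone have 1 library on 1 side. They cannot decide whether these differences hold within a group. Markers of other cell types moved with the replicate number too. Cd68, a macrophage gene, was at 182, 545 and 439 normalized counts in C28 replicates 1 to 3 and at 165, 654 and 469.7 in DMSO replicates 1 to 3. Adgre1, which encodes the macrophage protein F4/80, was at 745, 1650.4 and 1465 in C28 replicates and 766, 1833 and 1632 in DMSO replicates. Hdc, the histamine-making enzyme of mast cells and basophils, was at 2.08, 113 and 117 in C28 replicates and 1.87, 112 and 97.6 in DMSO replicates. All 3 were lowest in replicate 1 of both groups, whereas Ptprc, at 8917, 7229 and 7248 in C28 replicates and 8157, 6568 and 7041 in DMSO replicates, was highest there. Of the other leukocyte markers, Fcer1g was also highest in replicate 1, at 1691 with C28 and 1585 with DMSO. Tyrobp and Lyz2, which averaged 108 and 14.4, were lowest there, and Csf1r averaged only 1.81. The 6 fibroblast markers summed to 1065, 1485 and 2539 normalized counts in C28 replicates 1 to 3 and to 997, 1621 and 2315 in DMSO replicates 1 to 3. Most of each sum was Dcn, at 873, 1217 and 2115 with C28 and 829, 1270 and 1811 with DMSO. Col1a1, Col1a2 and Pdgfra, at lower counts, also rose from replicate 1 to 3 in both groups, and Col3a1 and Lum averaged 4.04 and 0.317. The part of all these markers in the differences between replicates was not tested.

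**Figure D3:**
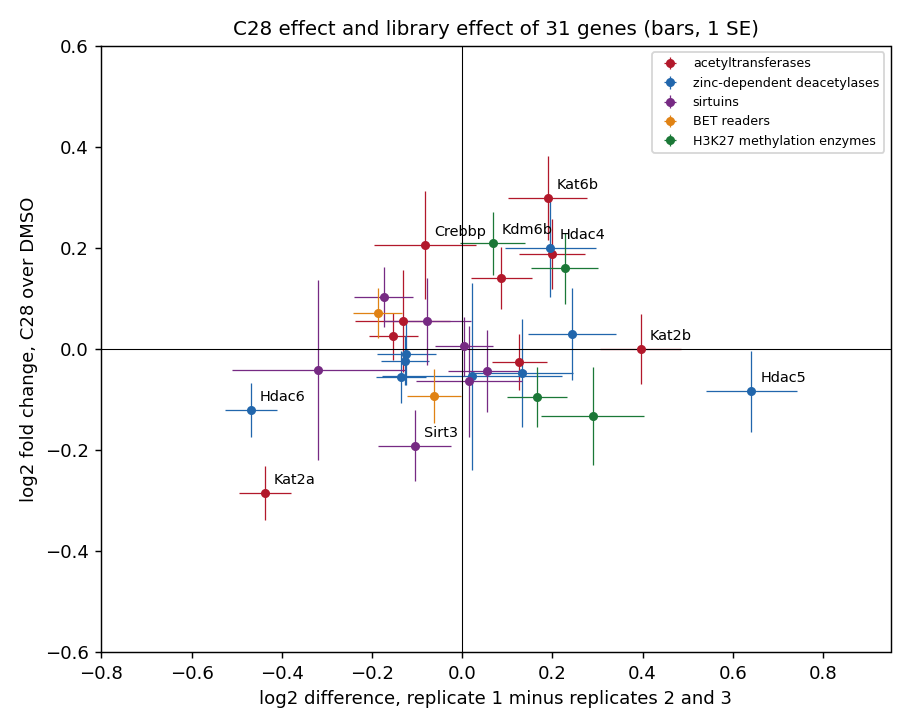
Log2 difference of replicate 1 from replicates 2 and 3 (x axis) and log2 fold change of C28 over DMSO (y axis) for 31 genes, leaving out Hdac9 at -2.99 on the x axis; bars are 1 SE, the vertical ones from the fit with the replicate block. Points spread further along x, from -0.47 for Hdac6 to 0.64 for Hdac5, than along y.

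Partner genes widened the view to 172 subunits, cofactor enzymes and related proteins with a row in the table, of which 169 were tested. Without the block 0 passed in limma, 0 passed in edgeR's quasi-likelihood test, 3 passed in DESeq2 (0.955% of all genes did), and 16 had an unadjusted limma p under 0.05 (7.83% of all genes did). With the block 7 rose and 8 fell in limma (8.88%, against 4.8% of all genes), and the median log2 fold change of the 169 was 0.01, against 0.00 over all genes. The blocked count was 15 without replicate 1 of both groups (4.48% of all genes called), 1 without replicate 2 (0.262%) and 4 without replicate 3 (1.09%). The lists were assembled with earlier results of these libraries known, so these counts are a description.

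Of 41 deacetylase complex subunits 38 did not pass with the block. Rcor2, a CoREST protein that joins HDAC1 and HDAC2 to the demethylase LSD1, was at 924, 838 and 758 with C28, against 1535, 1155 and 1101 with DMSO. It fell with the block and its groups did not overlap (log2 fold change -0.58, adjusted p in blocked limma 0.000763, in unblocked limma 0.316). Arid4b, a subunit of the SIN3 deacetylase complex, rose with the block and was at 1416, 1027 and 1112 normalized counts with C28, against 936, 848 and 825 with DMSO (adjusted p in blocked limma 0.00532, in unblocked limma 0.442).

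Of 43 acetyltransferase complex subunits 2 fell and 2 rose with the block. Tada2a, the adaptor that seats GCN5 or PCAF in the ATAC complex, was at 489.8, 636 and 634 normalized counts with C28, against 703, 809 and 786 with DMSO. Jade2, a scaffold of the HBO1 complex, was at 743, 753 and 843 with C28, against 1042, 1033 and 1005 with DMSO. Both fell with the block without overlap of the groups (log2 fold change -0.39 and -0.40, adjusted p 0.00922 and 0.00671 in blocked limma, 0.48 and 0.202 unblocked). Brpf3, another scaffold of HBO1, and Kansl2, a subunit of the MOF complex NSL, rose with the block by 0.29 and 0.21 on the log2 scale (limma adjusted p 0.0397 and 0.0296).

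**Figure D4:**
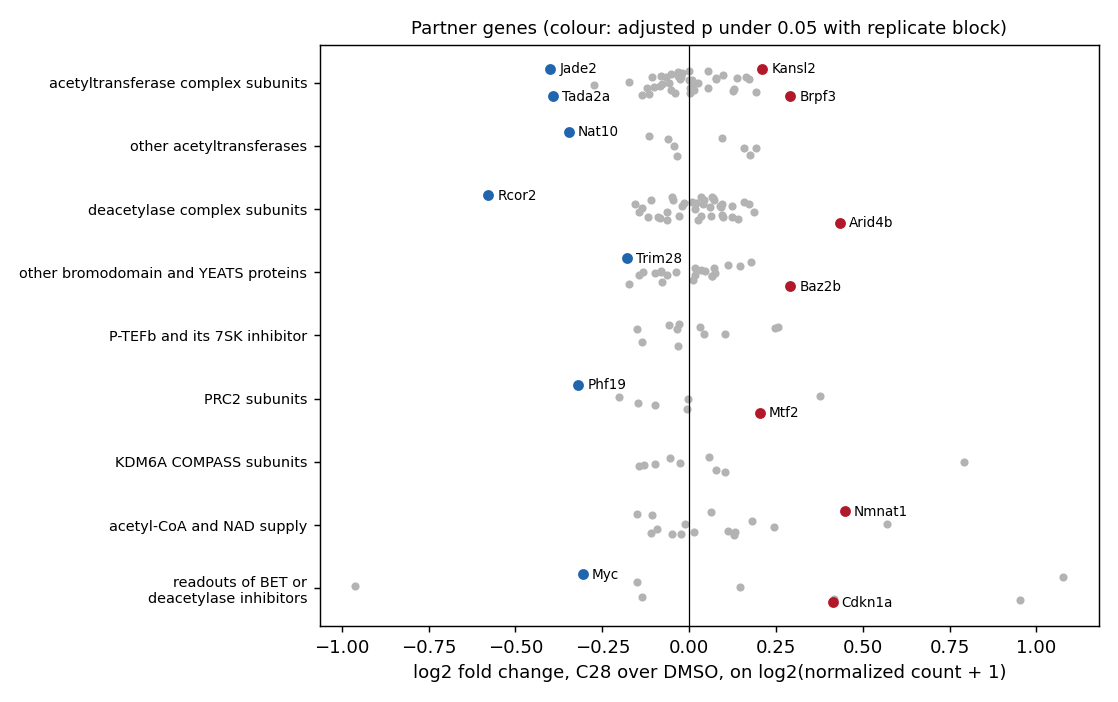
Log2 fold change of C28 over DMSO (x axis, on log2(normalized count + 1)) for 167 tested partner genes by list (y axis, Hexim1 drawn in both of its lists); red genes rose and blue genes fell with the replicate block, and grey genes did not pass. Coloured points run from -0.58 for Rcor2 to 0.45 for Nmnat1.

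Polycomb accessory subunits were split. Phf19 and Mtf2, Polycomb-like proteins that bring PRC2 to chromatin, moved in opposite directions with the block: Phf19 fell to 1272 ± 295 normalized counts with C28, against 1576 ± 282 with DMSO, and Mtf2 rose to 2640.2 ± 213 with C28, against 2290.1 ± 139.5 with DMSO (SD, n = 3 each). In blocked limma their adjusted p was 0.00871 and 0.0327, and in unblocked limma 0.795 and 0.63. The other 6 of 8 tested PRC2 subunits did not pass with the block. None of 9 subunits of the KDM6A COMPASS complex passed in either limma fit.

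Among 16 tested genes of acetyl-CoA and NAD supply 1 rose with the block. Nmnat1, which makes NAD in the nucleus, was at 459.7, 379 and 411 normalized counts with C28, against 325, 291 and 297 with DMSO, and its groups did not overlap (log2 fold change 0.45, adjusted p in blocked limma 0.01, in unblocked limma 0.324). Nampt, the rate-limiting enzyme of NAD salvage, was at 2296 ± 408 with C28 and 2257 ± 260.0 with DMSO, and Acly, which makes acetyl-CoA from citrate, at 7168 ± 696 with C28 and 7718 ± 567 with DMSO (SD, n = 3 each). Neither passed in limma (adjusted p 0.995 and 0.877, and 0.928 and 0.185 with the block).

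Genes used in human cells as readouts of BET or deacetylase inhibitors were mixed. Hexim1, the P-TEFb inhibitor whose rise marks BET inhibitors, was at 1172, 1156 and 1214 normalized counts with C28, against 1239.7, 1338 and 1353 with DMSO, lower in every C28 library (log2 fold change -0.15, adjusted p 0.694 in limma, 0.176 once blocked). Cdkn1a, the cell cycle inhibitor p21 that rises with deacetylase inhibitors and also with p53, was at 3264, 3720.3 and 3268 with C28, against 2332, 2867 and 2514 with DMSO. It rose with the block (log2 fold change 0.41, adjusted p in blocked limma 0.000771, in unblocked limma 0.281). Myc fell with the block by 0.31 on the log2 scale, to 6616 ± 439 with C28, against 8188 ± 664 with DMSO (adjusted p in blocked limma 0.00184, in unblocked limma 0.354). The other 7 of the 9 genes in that list, Hexim1 among them, did not pass with the block. Serpini1, Hist1h2bk and Clu averaged only 7.49, 4.06 and 2.87 normalized counts. H1f0 averaged 1431 and was lower with C28 in each pair (log2 fold change -0.14, adjusted p 0.954 in limma, 0.193 once blocked). Of the 9 genes 5 had a log2 fold change above 0 and 4 below.

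Other calls with the block were few in each list. Nat10, best known as an RNA cytidine acetyltransferase, fell by 0.35 on the log2 scale (limma adjusted p 0.0105 with the block), the only call among 9 other acetyltransferases. Among 24 tested bromodomain and YEATS proteins, Baz2b rose by 0.29 and Trim28, the KAP1 co-repressor, fell by 0.18 (limma adjusted p 0.0371 and 0.0302 with the block). None of the 11 genes of P-TEFb and its inhibitor complex passed in either limma fit. Mtf2, Trim28 and Myc lie outside the rule for named partner genes and were chosen after their values were seen.

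Promoter windows could be matched for 28 of the 33 genes, 40 windows in all, among 32851 windows of RefSeq build GRCm38.p6, each the 250 bases before a start. The 7 motifs were searched on both strands. They were the heat shock element GAANNTTC, the antioxidant response element written as TGACNNNGC, the amino acid response element written as TGATGNAA, the cyclic AMP response element, whose letters are TGACGTCA, the E-box, whose letters are CACGTG, the CCAAT box and the GC box, whose letters are GGGCGG. No motif contains another, though matches may overlap. The GC box was in 55% of the members' windows and in 32.7% of all windows, and the median share of G or C was 61.0% in the members' windows and 52.4% in all windows. The CCAAT box was in 35% of the members' and 33.9% of all windows. The antioxidant response element was in 17.5% of the members' windows, those of Ezh1, Ezh2, Hdac8, Hdac11, Kat8, Sirt1 and Sirt3, and in 10.2% of all windows. The heat shock element was in 2.5% of the members' (Kat8) and 6.69% of all windows, and the E-box in 7.5% of the members' and 6.02% of all windows. The amino acid response element was in 0% of the members' and 3.45% of all windows, and the cyclic AMP response element in 0% of the members' and 1.55% of all windows.

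H3K27ac, the product of p300 and CBP, could be described only as a whole. The authors' peak list held 21776 peaks over 19006199 bases in the C28 library and 23585 peaks over 23674658 bases in the control library, with a median fold enrichment, the authors' own value per peak, of 6.11 in the C28 library and 5.55 in the control library. With 1 library per group and no correction for depth these values carry no test. Peaks were given on mm9 per the submitters' processing notes and the promoter windows on GRCm38.p6, so peaks at these genes were not analysed here.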

How the data were processed

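The authors' expression table holds a signal per gene and library, a read count scaled by a size factor that each library has of its own. Its steps show this: in each library 1 read is worth 0.935 to 1.07 units, and 100% of the deposited values gave whole reads (tolerance 0.01), 108208382 in all. The deposited table also gives the authors' log2 fold change and adjusted p-value. The deposited peak lists give, per peak, a score, a fold enrichment ratio and −log10 p and q values from the authors' peak caller. Per the submitters' processing notes the tools were Bowtie2 and Cufflinks 2.2.1 and the build mm9. For the counter, the peak caller and strand use, the answer is not given in the sources used here.

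Sample titles gave each group and replicate number. Where a name had several rows, that with the highest mean was kept. Since the values are normalized, the main test was limma 3.58.1 (R 4.3.3, intensity trend) on log2(value + 1) for the 19054 genes that reached 1 in 3 or more of the 6 libraries, adjusted by Benjamini and Hochberg over all of them, threshold 0.05. The whole-read recovery allowed edgeR 4.0.16 and DESeq2 1.42.0 as alternatives, which called 28 and 182 genes without the block. Deviations from group means over 10572 genes correlated at 0.84, 0.68 and 0.71 between same-numbered libraries. Between different numbers the highest correlations were 0.54, for C28 replicate 3 with DMSO replicate 2, and 0.41, for C28 replicate 2 with DMSO replicate 3. Replicate 1 reached at most -0.65 with another number, so its pairing is clearer than that of replicates 2 and 3. The numbers were taken as pairs from the data, and no label states a pairing. Blocked values are given where they bear on a call. Named genes were all 33 members, partner genes past the threshold (with the block, the 6 lowest and 6 highest fold changes), and Hexim1, Nampt, Acly, Eed and Suz12; results for some partner genes that the rule names are not reported here. The members and lists were chosen with earlier results of these data known. The deposited table names 24187 rows itself, and 54079 Ensembl identifiers matched the reference names. Markers, windows and motifs are as named in the text.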

Additional observations from a re-analysis of the deposited data

How the results depend on the processing

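Under 22 alternatives (pseudocounts of 0.5 and 5, no filter, a mean of at least 10, TMM scaling, edgeR and DESeq2 with and without the block, and libraries left out singly or in pairs), the fold changes of the 32 genes gave 703 comparisons, and 698 kept their side of the threshold. In 64 of the 703 the sign differed from that in unblocked limma, each time with no call on either side, and 0 called values reversed. The exceptions were 4 for Kat2a and 1 for Kat6b, all with a replicate block. Alternatives without the block called from 0% of all genes (without C28 replicate 2) to 0.955% (DESeq2). A gene not called in the main fit could hardly be called there, so the 698 are no measure of stability. The count of members called, 0 without the block, was 1 with the replicate block in limma (4.8% of all genes called), 1 with the replicate block in DESeq2 (3.89%) and 2 with the replicate block in edgeR (6.99%). Leaving out replicates gave 0 to 1. For partner genes the count, also 0, was 15 with the replicate block in limma, 3 in DESeq2 without and 13 with the block, and 18 in edgeR with the block. Leaving out replicates gave 0 to 15 partner genes. With the block there were 15 without replicate 1 (4.48% of all genes called), 1 without replicate 2 (0.262%) and 4 without replicate 3 (1.09%). Replicate 1 against replicates 2 and 3 gave 6 members over all libraries (19.6% of all genes called). Fits within the C28 libraries only or the DMSO libraries only have 1 library on 1 side and cannot decide whether these differences hold there. The cause of the replicate 1 differences was not tested. The interval of the Hdac9 log2 fold change was -2.49 to 2.79, and -0.57 to 0.87 with the replicate block. The alternatives planned for H3K27ac peaks at start sites were not run, since start sites on the peaks' build were not used here.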
